A study of Mus musculus with 4 samples.

Results

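The 10 genes described here encode enzymes and helpers that process and cross-link collagen: the prolyl 4-hydroxylase subunits P4ha1 and P4ha2, the lysyl hydroxylases Plod1 and Plod2, the collagen chaperone Serpinh1, the procollagen C-proteinase enhancers Pcolce and Pcolce2, and the lysyl oxidases Lox, Loxl1 and Loxl2. They were chosen by name, and all 10 were found by symbol among the 31055 genes of the count tables. They were followed in muscle stem cells of mice aged 2 to 4 months carrying Tg:Pax7-nGFP, a transgene in which regulatory sequence of the satellite cell gene Pax7 drives a green fluorescent protein. Cells were sorted on that fluorescence from extraocular muscle (EOM), which moves the eye, and from tibialis anterior (TA), a limb muscle. Quiescent cells went directly from the sort to single-cell RNA sequencing on a droplet platform. Activated cells were grown first for 4 days on Matrigel, a basement membrane extract, in growth medium at 3% oxygen and 5% CO2. All 4 groups carry the transgene. Each group is 1 library, so no difference between groups has a replicate behind it, and activation cannot be told apart from the culture, its oxygen level or its matrix.

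Collagen chains are modified in the endoplasmic reticulum before they leave the cell. Prolyl 4-hydroxylase adds the hydroxyl groups that hold the triple helix together at body temperature, lysyl hydroxylases prepare lysines for sugar attachment and cross-links, and HSP47, the product of Serpinh1, binds the folded helix on its way out. Outside the cell the C-terminal propeptide is cut off by proteinases of the Bmp1 family, which Pcolce and Pcolce2 speed up, and lysyl oxidases convert lysines to the reactive aldehydes from which cross-links form. Satellite cells lie beneath a collagen-containing basal lamina and make part of their own matrix. Myog, used below to divide the activated cells, encodes myogenin, a transcription factor of terminal muscle differentiation.

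After filtering, 3608 EOM and 2934 TA cells were kept as quiescent and 5634 EOM and 4336 TA cells as activated, with a median of 4664, 5043.5, 21303 and 23401.5 unique molecular identifiers (UMIs, counts of captured transcripts) per cell. Levels are counts per 1000000 UMIs (CPM), summed over all kept cells of a library. A fold is a ratio of CPM, given with its 95% interval from the exact conditional binomial for Poisson counts. These intervals cover counting error only. A gene is called higher or lower when it was at least 2-fold apart and reached 5 CPM in either pool, and beside each count of called enzymes stands the percentage of all genes that met the same rule. The 12 muscle markers summed to between 3328 and 6343 CPM in the 4 libraries. The 8 endothelial markers summed to at most 9.67 CPM, the 7 immune markers to at most 22.4 CPM and the 5 Schwann cell markers to at most 13.5 CPM, and Ptprc, the leukocyte antigen CD45, was at 0 in all 4. The 11 fibroblast markers, which include collagen genes, summed to 604, 716, 88.0 and 79.2 CPM in the order quiescent EOM and TA, then activated EOM and TA. The 8 mural markers, with smooth muscle actin among them, summed to 430, 264, 2091 and 1196 CPM. The 6 tenocyte markers summed to 20.1, 14.4, 93.6 and 181 CPM, with Tnmd and Kera at 0 in both activated libraries. The part of these cell types in the results below was not tested beyond leaving out cells that held at least 2 of their more specific markers (5, 10, 32 and 33 cells).

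P4ha1 (chromosome 10, 59323296 to 59373304, plus strand, mm10) and P4ha2 (chromosome 11, 54100095 to 54131665, plus strand) encode the alternative catalytic subunits of prolyl 4-hydroxylase. Their levels followed each other closely: over 8 pools of cells, the 2 quiescent libraries and 3 classes of Myog count in each activated library, log2(CPM + 1) of the pair had a Pearson correlation of 0.96, a description only, since pools of 1 library share its depth and handling. This value was the highest among all pairs of the 10 genes. The proximal promoters of both are therefore shown, as RefSeq windows of GRCm38.p6 from 250 bases before to 50 bases after the start, 5′ to 3′ in the gene's direction. Capitals mark ACGTG, the core of the hypoxia response element, searched on both strands (CACGT is the same core on the other strand).
P4ha1 (chr10:59323046-59323345, plus strand): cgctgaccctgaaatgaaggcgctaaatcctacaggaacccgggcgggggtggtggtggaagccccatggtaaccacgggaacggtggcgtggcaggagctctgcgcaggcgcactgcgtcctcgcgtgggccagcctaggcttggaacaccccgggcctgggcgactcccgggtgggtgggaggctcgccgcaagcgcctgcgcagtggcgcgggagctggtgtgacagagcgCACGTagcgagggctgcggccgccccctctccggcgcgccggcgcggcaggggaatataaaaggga
P4ha2 (chr11:54100674-54100973, plus strand): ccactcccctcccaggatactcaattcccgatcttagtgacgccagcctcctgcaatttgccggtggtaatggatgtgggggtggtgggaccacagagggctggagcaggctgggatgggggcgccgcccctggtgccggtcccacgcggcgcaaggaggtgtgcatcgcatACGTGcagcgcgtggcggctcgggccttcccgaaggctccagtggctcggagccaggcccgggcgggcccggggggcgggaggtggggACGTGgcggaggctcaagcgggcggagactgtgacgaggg
The windows stand at RefSeq's start of each gene, while the spans given for genes are those of GENCODE vM21 and reach further upstream for P4ha2, as they do for Pcolce below. The core was present once in the P4ha1 window, at bases 235 to 239, and at 2 places in the P4ha2 window, at bases 173 to 177 and 261 to 265. Of 32851 promoter windows of 300 bases, 19.6% held it. A match describes the letters and shows no binding. Windows were found for 6 of the 10 genes. That of Serpinh1 also held the core, at bases 80 to 84 on the other strand, and those of Pcolce, Pcolce2 and Plod1 had no match.

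In the quiescent libraries P4ha1 was at 100.1 CPM in EOM and 85.8 CPM in TA, and in the activated libraries at 84.6 CPM in EOM and 46.8 CPM in TA. Activated TA was thus the low library, and the other 3 lay close together. P4ha2 gave the same picture at 19.5, 18.8, 19.8 and 10.2 CPM. The activated to quiescent fold of P4ha1 was 0.845 (95% interval 0.803 to 0.889) in EOM and 0.545 (0.513 to 0.58) in TA. For P4ha2 these folds were 1.02 (0.91 to 1.14) and 0.542 (0.476 to 0.62). None of the 4 reached the 2-fold rule, and all intervals but that of P4ha2 in EOM lay below 1. After TMM scaling, which normalizes on the bulk of genes, the P4ha1 fold in EOM turned to 1.09, and the TA folds were 0.664 for P4ha1 and 0.661 for P4ha2.

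Plod1 (chromosome 4, 147909753 to 147936767, minus strand) hydroxylates lysines of the triple helix, and Plod2 (chromosome 9, 92542223 to 92608428, plus strand) those of the telopeptides, the non-helical chain ends. Plod1 was the steadiest of the 10 genes on the CPM scale, at 12.1 and 12.2 CPM in the quiescent and 14.3 and 12.0 CPM in the activated libraries (EOM, then TA). TMM scaling gave it an activated to quiescent fold of 1.52 in EOM and 1.2 in TA, in place of 1.18 and 0.988. Plod2 divided the libraries by muscle instead: it was at 81.6 CPM in quiescent and 80.2 CPM in activated EOM, against 42.5 and 36.6 CPM in TA. Its EOM to TA fold was 1.92 (1.75 to 2.11) in quiescent and 2.19 (2.11 to 2.28) in activated cells, so that only the second passed the 2-fold rule. The ratio of these folds was 1.14 (1.03 to 1.26).

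Serpinh1 (chromosome 7, 99345376 to 99353239, minus strand) was at 178 CPM in quiescent EOM, 190 CPM in quiescent TA, 946 CPM in activated EOM and 715 CPM in activated TA. Both activated libraries stood far above both quiescent ones. The chaperone was 5.31-fold higher in activated than in quiescent EOM (5.12 to 5.5) and 3.77-fold higher in TA (3.63 to 3.91). TMM scaling gave folds of 6.82 and 4.6. With every cell thinned to 2000 UMIs, 26.2% of EOM and 25.3% of TA cells in quiescence held a Serpinh1 UMI, against 83.1% and 74% of activated cells. All UMIs of each cell gave 45.5%, 46.6%, 99.7% and 98.8% in the same order. Among the endothelial-like cells left out of quiescent TA, 13 reached that depth and 53.8% of them held one (exact Clopper-Pearson 95% interval 25.1% to 80.8%). Endothelial cells are known to make this chaperone, so they are not a type that should lack it.

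**Figure D1:**
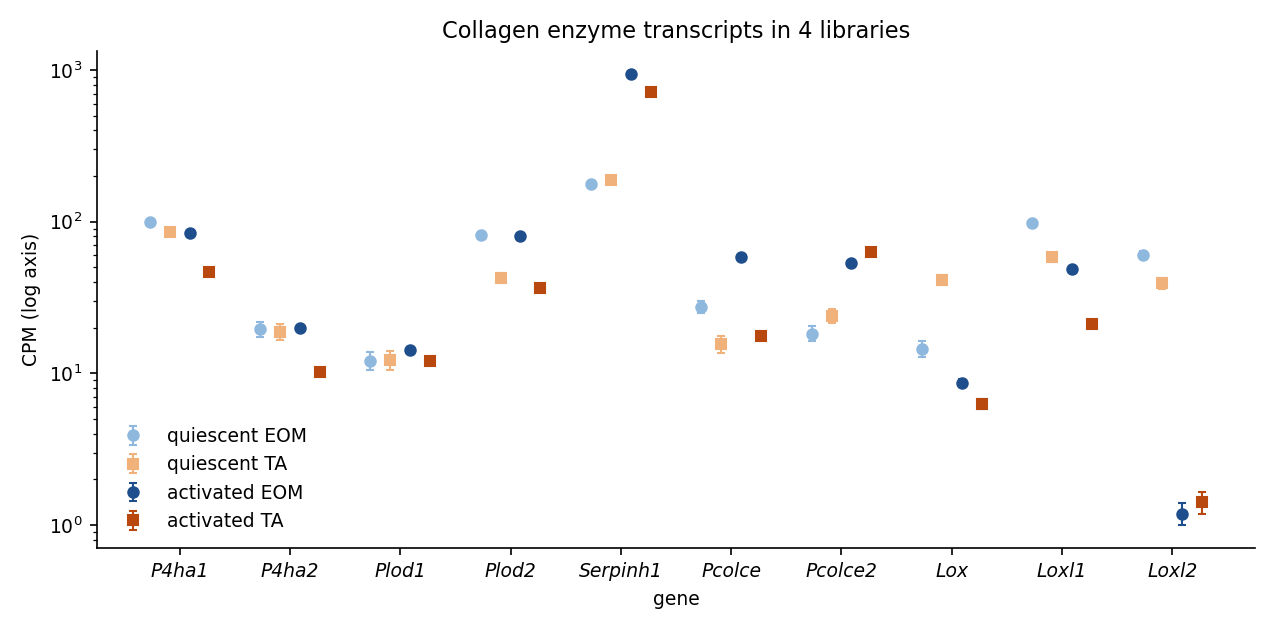
CPM of the 10 genes (vertical, log axis) in the 4 libraries, 1 point per library, with bars for the exact 95% Poisson interval of the count. Serpinh1 reaches 946 CPM in activated EOM, and Loxl2 lies at 1.18 and 1.41 CPM in the activated libraries against 59.9 and 39.2 CPM in the quiescent ones.

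Pcolce (chromosome 5, 137605103 to 137613784, minus strand) and Pcolce2 (chromosome 9, 95637601 to 95698096, plus strand) encode related secreted glycoproteins that bind procollagen and speed up the removal of its C-propeptide. Their promoter windows are shown because the pair parted by muscle and by Myog state (below). Capitals mark CAGCTG, an E-box of the kind that myogenic factors bind, which reads the same on both strands.
Pcolce (chr5:137611355-137611654, minus strand): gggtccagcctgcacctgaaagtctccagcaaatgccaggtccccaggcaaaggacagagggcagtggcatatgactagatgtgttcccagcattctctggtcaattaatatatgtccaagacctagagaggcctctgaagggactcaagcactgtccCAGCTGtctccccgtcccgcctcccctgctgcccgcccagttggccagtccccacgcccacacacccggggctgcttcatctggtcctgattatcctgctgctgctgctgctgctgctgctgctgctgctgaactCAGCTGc
Pcolce2 (chr9:95637378-95637677, plus strand): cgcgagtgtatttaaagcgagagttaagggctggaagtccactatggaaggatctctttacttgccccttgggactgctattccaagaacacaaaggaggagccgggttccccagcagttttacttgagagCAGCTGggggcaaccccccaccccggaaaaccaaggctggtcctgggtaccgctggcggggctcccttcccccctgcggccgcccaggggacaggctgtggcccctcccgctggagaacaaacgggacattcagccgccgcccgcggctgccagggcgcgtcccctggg
CAGCTG was present at 2 places in the Pcolce window, bases 159 to 164 and 294 to 299, and at 1 place in the Pcolce2 window, bases 132 to 137. Of the 32851 windows, 16.3% held it. The windows of P4ha1, P4ha2, Plod1 and Serpinh1 had no match, which says only that these letters are not in them.

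Pcolce was at 27.3 CPM in quiescent EOM and 15.5 CPM in quiescent TA, and at 58.7 CPM in activated EOM and 17.6 CPM in activated TA. Activated EOM was the high library. The fold with activation was 2.15 (1.96 to 2.37) in EOM, a call, and 1.13 (0.987 to 1.3) in TA. After TMM scaling these folds were 2.77 and 1.38, so the small TA fold depends on the scaling. Pcolce2 was at 18.3 CPM in EOM and 23.8 CPM in TA before culture and at 53.4 and 63.4 CPM after it, and was higher with activation in both muscles, by 2.92-fold (2.61 to 3.27) in EOM and 2.66-fold (2.39 to 2.96) in TA. In both states Pcolce was thus the more EOM-weighted of the pair. Pcolce overlaps Fbxo24 on the same strand and the antisense gene Gm36266, and how reads were divided among them is not given in the sources used here. Fbxo24 was at no more than 0.625 CPM and Gm36266 at no more than 1.82 CPM in any of the 4 libraries.

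All enzymes called lower in culture were lysyl oxidases. Loxl2 (chromosome 14, 69609068 to 69695834, plus strand), which cross-links basement membrane collagen IV, was at 59.9 CPM in quiescent EOM and 39.2 CPM in quiescent TA, and at 1.18 CPM in cultured EOM and 1.41 CPM in cultured TA cells. Its activated to quiescent fold was 0.0197 (0.0164 to 0.0234) in EOM and 0.0359 (0.0297 to 0.0431) in TA, that is 50.9-fold and 27.9-fold lower. After TMM scaling these folds were 0.0253 and 0.0437. The activated values rest on 147 and 146 UMIs in 129 and 135 cells, and 51.0% and 37.7% of these UMIs came from the 1% of cells with the most of them. With so few UMIs a large share falls in that 1% by their number alone.

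Loxl1 (chromosome 9, 58287738 to 58313186, minus strand), known for its part in elastic fibre assembly, was at 98.0 CPM in quiescent EOM, 58.3 CPM in quiescent TA, 49.1 CPM in activated EOM and 21.1 CPM in activated TA. It was lower in activated than in quiescent TA, with a fold of 0.361 (0.334 to 0.391). In EOM the fold of 0.5 (0.474 to 0.528) came just short of the rule, and it passed when cells with markers of another type were left out (log2 ratio of CPM + 1 of -0.98 with them and -0.99 without). After TMM scaling the EOM fold was 0.643, further from the rule, and the TA fold was 0.44, still a call.

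Lox (chromosome 18, minus strand), the founding lysyl oxidase, was at 14.5 CPM in quiescent EOM, 41.1 CPM in quiescent TA, 8.63 CPM in activated EOM and 6.3 CPM in activated TA. Quiescent TA was the high library and stood apart from the other 3. Lox was lower with activation in TA, with a fold of 0.153 (0.137 to 0.171), and the EOM fold of 0.594 (0.518 to 0.684) did not reach the rule. Its UMIs sat in few cells: the 1% of cells with the most Lox held 43.5% of the Lox UMIs in quiescent EOM, 29.5% in quiescent TA, 20.8% in activated EOM and 27.4% in activated TA. At 2000 UMIs a cell, 2.55% of the quiescent cells of EOM and 6.08% of those of TA held a Lox UMI (4.82% and 11.1% with all UMIs). None of the 13 endothelial-like cells did, which allows a share of up to 23.1% when 3 cells of the 13 are taken as the limit, and up to 24.7% by the exact Clopper-Pearson interval. The libraries also differed in quality: 40.5% of quiescent TA barcodes exceeded the mitochondrial limit, against 11.7% in quiescent EOM. The calls of Lox were the same with that limit at 20% and with every cell given equal weight.

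By count, 3 of the 10 enzymes were higher in activated than in quiescent EOM (Serpinh1, Pcolce2 and Pcolce) and 1 was lower (Loxl2), against 25.3% of all genes higher and 25.3% lower. In TA, 2 were higher (Serpinh1 and Pcolce2) and 3 lower (Loxl2, Lox and Loxl1), against 29.2% higher and 24.8% lower. The background depends on the scaling: after TMM scaling 34.8% of all genes were higher and 19.5% lower in EOM, and 36.2% higher and 20.1% lower in TA, while the calls of the 10 enzymes were as before. The counts lie near these backgrounds, so the number of changed enzymes is no result about the group. Loxl2 in both muscles, Lox in TA and Serpinh1 in EOM had the largest folds of the 10 in either direction. The median log2 ratio over the enzymes was 0.00 in EOM and -0.52 in TA, beside 0.05 and 0.14 over all genes tested. All 6 folds of the lysyl oxidases had intervals below 1, Lox in EOM being the mildest.

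**Figure D2:**
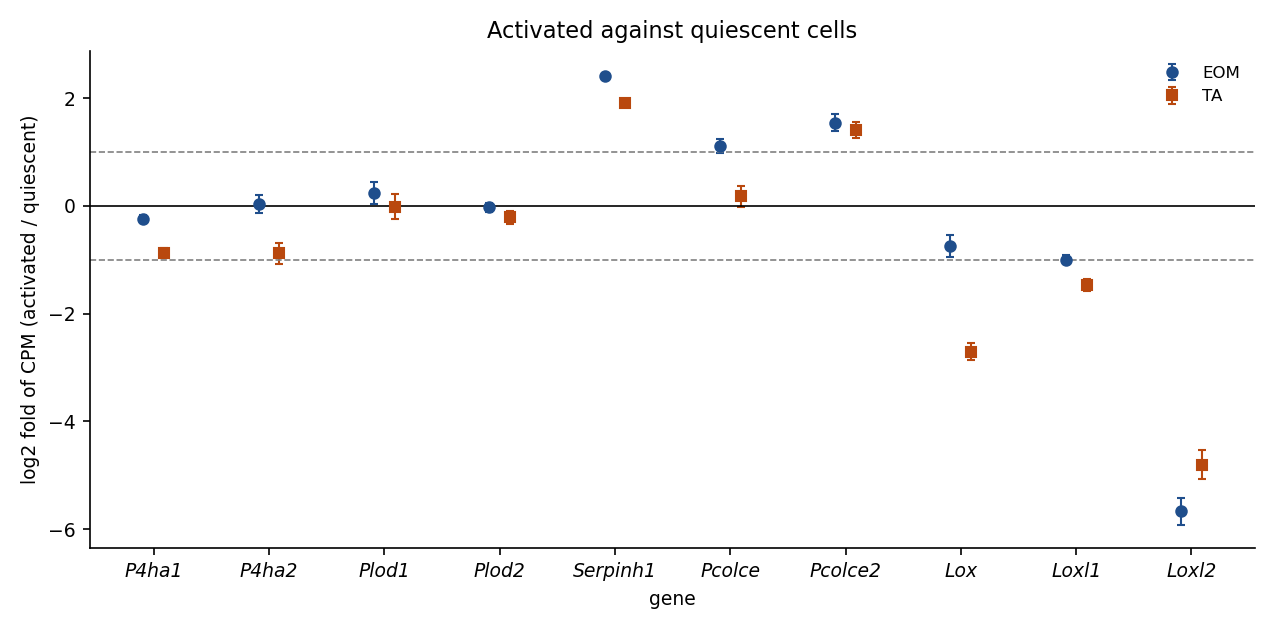
log2 fold of CPM, activated over quiescent (vertical), for the 10 genes in EOM and TA, with bars for the exact 95% interval and dashed lines at 2-fold. Serpinh1 and Pcolce2 lie above the upper line in both muscles, Pcolce does so in EOM, and Loxl2 lies far below the lower line in both.

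The rest of the collagen pathway was read from lists of other enzymes and chaperones, secretory route genes and collagen chains. Beside the counts stand the percentages of all genes given above (25.3% higher and 25.3% lower in EOM, 29.2% and 24.8% in TA). Of 23 further collagen enzymes and chaperones, 14 reached 5 CPM in EOM and 15 in TA. With activation 2 were higher and 4 lower in EOM, and 4 higher and 4 lower in TA, with a median log2 ratio of -0.25 and -0.28, shares near or under those of all genes in most cases. After TMM scaling these counts were 4 higher and 3 lower in EOM, where Bmp1 no longer passed (fold 0.639), and 5 and 4 in TA. Fkbp10, a prolyl isomerase that assists lysyl hydroxylation, was 2.97-fold higher in EOM and 3.3-fold higher in TA. Ppib, cyclophilin B, was at 798 CPM in activated and 409 CPM in quiescent EOM, a fold of 1.95, and was 2.39-fold higher in TA. Bmp1, the C-proteinase that the Pcolce proteins assist, had an activated to quiescent fold of 0.497 (0.457 to 0.542) in EOM and 0.318 (0.289 to 0.351) in TA. P3h3, a prolyl 3-hydroxylase family member, was lower with a fold of 0.14 and 0.0877.

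Of 18 secretory route genes, 3 were higher and 2 lower with activation in EOM, and 2 higher and 2 lower in TA, fewer than the shares of all genes (25.3% and 25.3%, 29.2% and 24.8%) would give. TMM scaling gave 8 higher and 1 lower in EOM, and 3 and 2 in TA. The shares of all genes were then 34.8% and 19.5% in EOM and 36.2% and 20.1% in TA. The EOM count of higher genes thus lay above its share under that scaling, and the other counts lay under theirs. Kdelr3, a retrieval receptor for endoplasmic reticulum proteins, was higher in both muscles (4.13-fold in EOM and 2.38-fold in TA), and Creb3l1, a transcription factor of secretory and collagen genes, was 3.01-fold higher in EOM. Creb3l2, of the same list, went the other way, with a fold of 0.22 in EOM and 0.195 in TA. Hspa5, the general chaperone BiP, was lower, at 663 against 1677 CPM in EOM and 583 against 2272 CPM in TA. The EOM call of Hspa5 ended with TMM scaling (fold 0.508 in place of 0.395), and the TA call did not (0.312). Of the 44 collagen chain genes, 18 reached 5 CPM in EOM and 19 in TA. There 5 were higher and 8 lower in EOM, and 3 higher and 11 lower in TA, with a median log2 ratio of -0.63 and -1.38. After TMM scaling 19 chains reached 5 CPM in EOM, 6 of them higher and 8 lower. In TA 5 of 19 were then higher and 10 lower. Col1a2 was 7.57-fold higher in EOM and 2.76-fold higher in TA, while Col6a1 had a fold of 0.176 and 0.0228.

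P4ha1, P4ha2, Plod2 and Lox are known targets of hypoxia-inducible factors, and the activated cells were grown at 3% oxygen. Of 22 hypoxia response genes, 21 reached 5 CPM. With activation 12 were higher and 7 lower in EOM, and 11 higher and 8 lower in TA, with a median log2 ratio of 1.61 and 1.01. Over all genes 25.3% were higher and 25.3% lower in EOM, 29.2% and 24.8% in TA, with medians of 0.05 and 0.14. TMM scaling gave 12 hypoxia response genes higher and 6 lower in each muscle. Over all genes 34.8% were then higher and 19.5% lower in EOM, and 36.2% and 20.1% in TA. Pgk1, a glycolytic enzyme, was 14.0-fold higher in EOM and 12.1-fold higher in TA, whereas Ndrg1 was lower, with a fold of 0.024 and 0.0129. None of the 4 enzymes named was called higher in either muscle, and Lox was called lower in TA. Whether oxygen acted on any of them was not tested, because the 3% oxygen came together with culture and activation.

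The muscles were compared next within each state. Between the quiescent libraries all 10 enzymes reached 5 CPM, none was higher in EOM (4.85% of all genes were) and 1, Lox, was lower (2.67% of all genes were). Of all genes called, 64.5% were higher in EOM, and 54.0% after TMM scaling. Lox stood at 14.5 CPM in EOM and 41.1 CPM in TA, a fold of 0.353 (0.304 to 0.409). Plod2 at 1.92, Pcolce at 1.76 (1.5 to 2.06) and Loxl1 at 1.68 (1.55 to 1.82) were the largest folds towards EOM, all within the rule. Serpinh1, with a fold of 0.939 (0.893 to 0.988), P4ha2 with 1.04 (0.886 to 1.22) and Plod1 with 0.996 (0.815 to 1.22) differed little. The median over the enzymes was a log2 ratio of 0.14, beside 0.10 over all genes.

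Between the activated libraries 9 enzymes reached 5 CPM. Of these, 3 were higher in EOM, against 2.98% of all genes, and none was lower, against 1.39%. Pcolce was 3.35-fold higher (3.18 to 3.52), Loxl1 2.33-fold higher (2.22 to 2.44) and Plod2 2.19-fold higher. P4ha2 at 1.95 (1.81 to 2.1) and P4ha1 at 1.81 (1.75 to 1.87) came close to the rule. Pcolce2 was the 1 enzyme of the 9 with a fold below 1, at 0.842 (0.814 to 0.872). The median log2 ratio over the enzymes was 0.84, beside -0.01 over all genes. EOM and TA contrasts in quiescent and activated cells come from different libraries, and the fold in activated cells exceeded that in quiescent cells by 3.88 times for Lox (3.26 to 4.62), 1.91 times for Pcolce (1.62 to 2.24), 1.88 times for P4ha2 (1.58 to 2.23) and 1.55 times for P4ha1 (1.43 to 1.68), with intervals for counting error only. Serpinh1 (1.41), Loxl1 (1.38) and Plod2 (1.14) had smaller ratios above 1, and the intervals of Plod1 and Pcolce2 include 1. Loxl2 went the other way, at 0.548 (0.427 to 0.703), from an EOM to TA fold of 1.53 in quiescent to 0.838 in activated cells, where it was under 5 CPM.

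In the same activated comparison 1 of 13 other collagen enzymes and 2 of 18 secretory route genes were higher in EOM and none was lower (2.98% and 1.39% of all genes). Kdelr3 was 2.66-fold and Creb3l1 2.47-fold higher. The single enzyme was Fkbp14, another prolyl isomerase, named after its value was seen (2.15-fold). Of 17 collagen chains, 8 were higher and 3 (Col7a1, Col13a1 and Col19a1, likewise named) lower, and of the higher chains that reached 20 CPM Col6a1 (14.0-fold) and Col1a2 (7.14-fold, 546 against 76.4 CPM) had the largest folds. Col6a2, below that level, was at 9.36 against 0.568 CPM. The median log2 ratio was 0.42 over the other enzymes, 0.23 over the secretory route and 0.74 over the chains.

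Activated cells were then divided by Myog. Each cell was thinned to 2000 UMIs and called Myog-holding if at least 1 Myog UMI remained, and Myog-free otherwise. In EOM 2830 cells were Myog-free and 2773 Myog-holding, and in TA 1670 and 2619. The states are ranges of a count: 502 EOM and 524 TA cells held exactly 1 Myog UMI, and before thinning 65.5% (EOM) and 76% (TA) of the Myog-free cells held one. The 13 markers of differentiating muscle summed to 717 CPM in Myog-free and 14682 CPM in Myog-holding EOM cells, against 3177 and 16871 CPM in TA, so the states were further apart in EOM. Mki67 or Top2a, markers of cycling cells, were found in 60.4% of Myog-free and 38.4% of Myog-holding EOM cells and in 57.4% and 40.4% in TA.

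In EOM 4 of 9 enzymes were lower in Myog-holding cells, against 6.57% of all genes, and none was higher, against 6.64%. Of all genes called, 50.3% were higher in Myog-holding cells, and 60.7% after TMM scaling. Lox was at 13 CPM in Myog-free and 3.74 CPM in Myog-holding cells, a fold of 0.287 (0.246 to 0.333). Loxl1 was at 68.7 and 27.2 CPM, with a fold of 0.396 (0.373 to 0.419). Pcolce2 was at 72.5 and 32.2 CPM (0.444, 0.421 to 0.469) and Pcolce at 78.6 and 36.7 CPM (0.467, 0.444 to 0.491). Loxl2 did not reach 5 CPM. The other 5 were within the rule, with Plod1 at 0.557 (0.504 to 0.615), P4ha1 at 0.694 (0.667 to 0.722), P4ha2 at 0.776 (0.716 to 0.841) and Serpinh1 at 0.797 (0.787 to 0.806). Plod2 was the exception in direction, at 71.3 CPM in Myog-free and 90 CPM in Myog-holding cells, a fold of 1.26 (1.21 to 1.31). The median log2 ratio over the enzymes was -0.79, beside -0.12 over all genes. The call of Pcolce ended with TMM or median-of-ratios scaling (log2 ratio -0.95 and -0.96 in place of -1.08). It also ended, with those of Pcolce2 and Loxl1, when Myog state was read from all UMIs of a cell (-0.59, -0.53 and -0.78).

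In TA 2 of 9 enzymes were lower in Myog-holding cells, against 2.11% of all genes, and none was higher, against 4.24%. Lox was at 10.4 CPM in Myog-free and 3.43 CPM in Myog-holding cells, a fold of 0.33 (0.279 to 0.39), and Pcolce2 at 93.4 and 42.8 CPM, a fold of 0.458 (0.436 to 0.482). Pcolce was at 17.8 and 17.4 CPM (0.98, 0.892 to 1.08), and P4ha1 at 47.0 and 46.6 CPM (0.99, 0.935 to 1.05), both with intervals that include 1. Loxl1 had a fold of 0.607 (0.557 to 0.66), from 27.5 to 16.7 CPM. The median log2 ratio was -0.10, beside -0.07 over all genes. The call of Pcolce2 ended with Myog state from all UMIs (-0.73 in place of -1.11).

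The Myog fold in EOM divided by that in TA was 0.477 for Pcolce (0.429 to 0.53), 0.652 for Loxl1 (0.589 to 0.722) and 0.701 for P4ha1 (0.654 to 0.752). For Pcolce2 and Lox it was 0.969 (0.902 to 1.04) and 0.869 (0.697 to 1.08), intervals that include 1, as does that of Loxl2. Plod1 (0.723), Serpinh1 (0.83) and P4ha2 (0.834) lay below 1 and Plod2 (1.15) above it, with intervals that exclude 1. Beside this stands the smaller distance between the TA states in their differentiation markers. When Myog-free cells were limited to those with no UMI of any of the 13 differentiation markers at 2000 UMIs (1074 cells in EOM and 111 in TA, an alternative chosen after seeing the data), the log2 ratio of Pcolce was -1.13 in EOM and -0.07 in TA, that of P4ha1 -0.59 and -0.08, and that of Loxl1 -1.31 and -0.70.

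The activated cells were also read in 3 steps of Myog count. With 0, 1 to 2 and at least 3 Myog UMIs, EOM cells had 78.6, 58.3 and 28.1 CPM of Pcolce, and TA cells 17.8, 15.9 and 18.2 CPM. Loxl1 went from 68.7 over 47.8 to 19.0 CPM in EOM and from 27.5 over 18.9 to 15.5 CPM in TA. Its EOM and TA levels thus lay close together in cells with the most Myog. Pcolce2 went from 72.5 over 62.6 to 20.1 CPM in EOM and from 93.4 over 69.0 to 29.2 CPM in TA, and was higher in TA in all 3 classes. Lox had 13, 8.96 and 1.66 CPM in EOM and 10.4, 5.72 and 2.25 CPM in TA. Plod2 was higher with each class in EOM, at 71.3, 84.5 and 92.3 CPM, while in TA it was at 34.5, 33.4 and 40.4 CPM. Serpinh1 was at 1046, 945 and 789 CPM in EOM and between 700 and 733 CPM in TA.

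**Figure D3:**
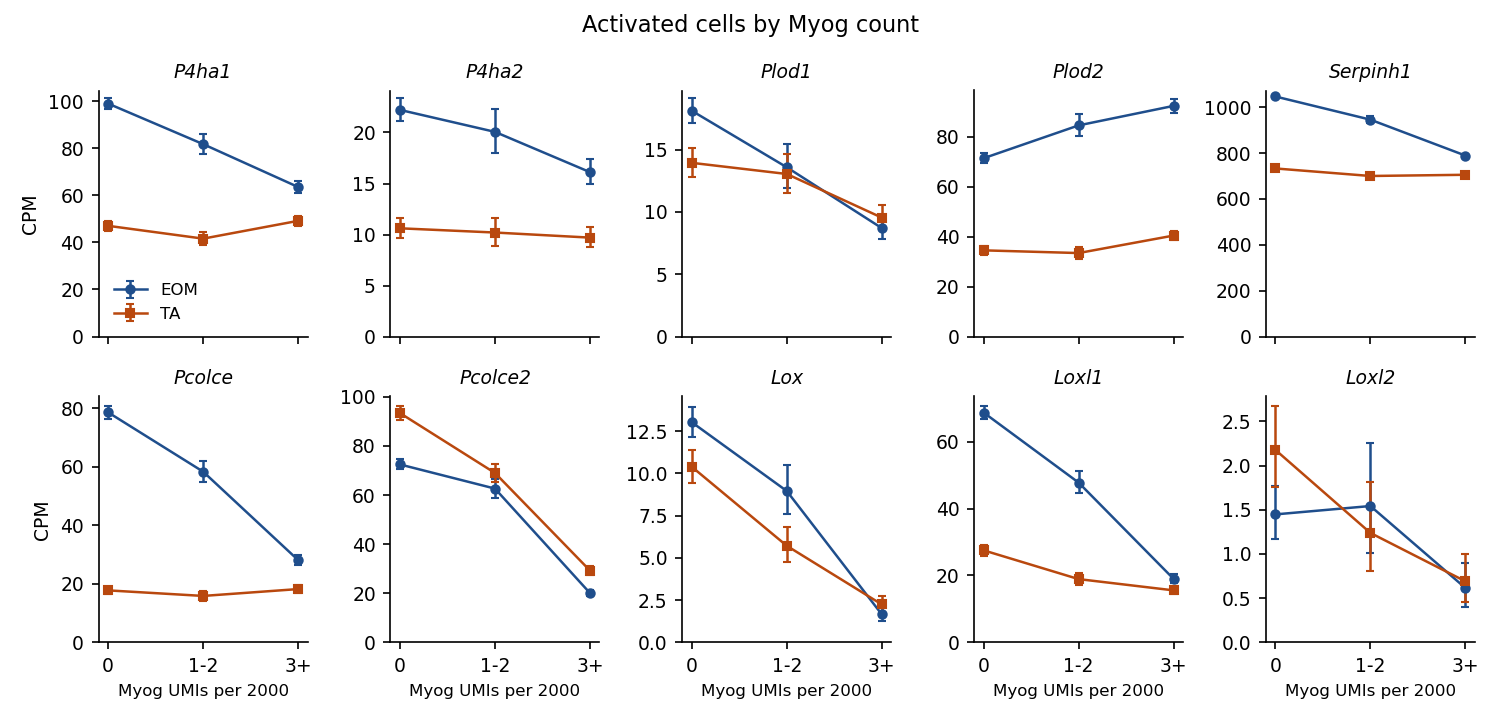
CPM of each gene (vertical, starting at 0, own scale per panel) in activated EOM and TA cells with 0, 1 to 2 or at least 3 Myog UMIs at 2000 UMIs, with bars for the exact 95% Poisson interval. Pcolce goes from 78.6 to 28.1 CPM in EOM and stays between 15.9 and 18.2 CPM in TA, whereas Lox and Pcolce2 are lower with more Myog in both muscles.

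Among other enzymes of the pathway, 6 of 16 were lower in Myog-holding EOM cells and 1 of 12 in TA, and none was higher (4 and 0 after TMM scaling). Of all genes 6.57% were lower in EOM and 2.11% in TA. Bmp1 had a fold of 0.355 (0.323 to 0.389) in EOM and was also the single call in TA, at 0.485, named there after its value was seen. Creb3l1 was lower in both muscles, at 50.1 against 158 CPM in EOM (0.317) and 29.2 against 64.0 CPM in TA (0.457). Of 16 collagen chains in EOM 12 were lower and 1 higher (9 and 1 after TMM scaling), and of 14 in TA 4 were lower, with a median log2 ratio of -1.37 and -0.43. Col5a3, Col6a1 and Col12a1 had folds of 0.19, 0.23 and 0.296 in EOM, and Col8a1 0.463 in TA. The 1 higher chain was Col25a1, at 6.87 against 0.884 CPM, chosen after its value was seen.

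Comparing the muscles within each Myog state, 5 of 9 enzymes were higher in EOM among Myog-free cells, against 3.31% of all genes, and none was lower, against 2.08%. Pcolce was 4.43-fold higher (4.1 to 4.78), Loxl1 2.5-fold (2.34 to 2.67), P4ha1 2.1-fold (2 to 2.21), P4ha2 2.09-fold (1.88 to 2.33) and Plod2 2.07-fold (1.95 to 2.2). The last 3 calls lie at the edge of the rule. Among Myog-holding cells 8 enzymes reached 5 CPM, 2 were higher in EOM, against 2.41% of all genes, and none was lower, against 1.28%. These were Plod2 at 2.37 (2.26 to 2.49) and Pcolce at 2.11 (1.96 to 2.27). Pcolce lost its call with Myog-holding cells taken at 3 or more UMIs (log2 ratio 0.60 in place of 1.04) and in cells without Mki67 or Top2a (0.76). Loxl1 was at 1.63 (1.5 to 1.76), P4ha1 at 1.48 (1.41 to 1.55) and P4ha2 at 1.75 (1.58 to 1.94). The median log2 ratio over the enzymes was 1 in Myog-free and 0.61 in Myog-holding cells, beside 0.00 and -0.04 over all genes. These comparisons reuse the cells of those above, so they are other views of the same libraries.

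**Figure D4:**
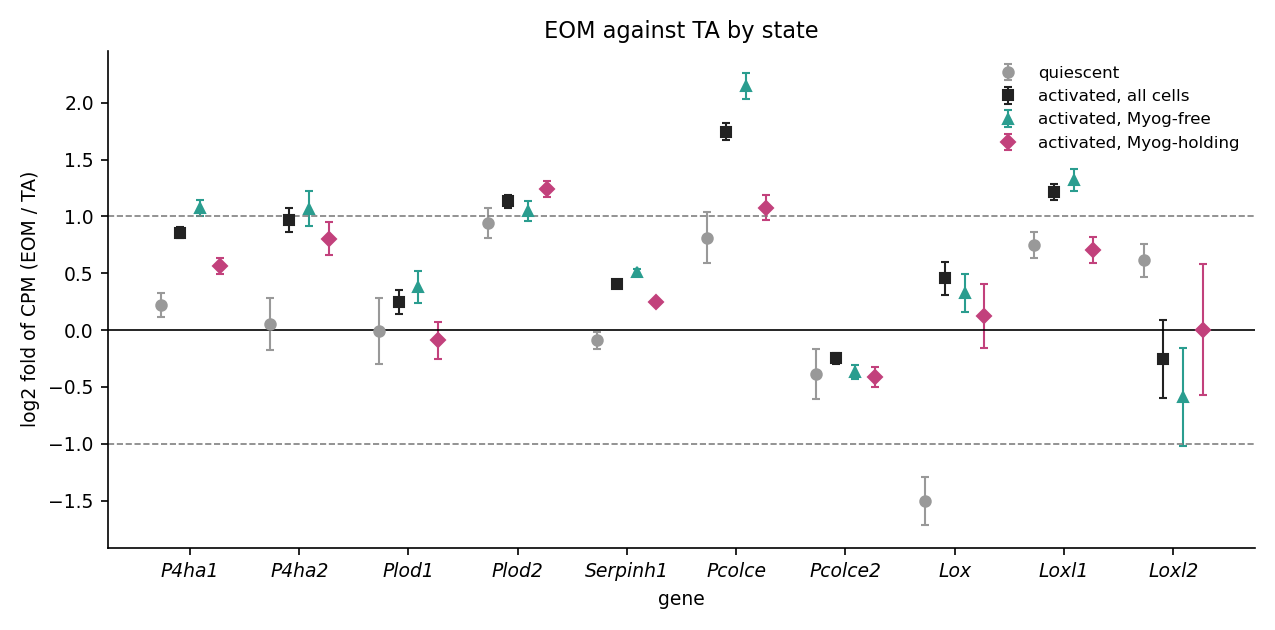
log2 fold of CPM, EOM over TA (vertical), for the 10 genes in quiescent cells, all activated cells, Myog-free and Myog-holding activated cells, with bars for the exact 95% interval and dashed lines at 2-fold. Plod2 lies between 1.92-fold and 2.37-fold in all 4, Pcolce is highest in Myog-free cells at 4.43-fold, and Lox is lower in EOM in quiescent cells and not in activated ones.

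For each enzyme the 3 genes with the most similar levels over the 8 pools were taken from 7016 genes that reached 20 CPM in at least 1 pool. P4ha1 and P4ha2 shared Copz2, a coat protein subunit of transport vesicles (Pearson correlation 0.99 and 0.98), and the collagen chain Col5a1 (0.96 and 0.97). Ranked between these were Tmbim6 for P4ha1 and Pfn2 for P4ha2 (0.98 each). Pcolce was closest to Tmem263 (0.99), to Copb2, another coat protein subunit, and to Acadm (0.98 each). Pcolce2 was closest to Cmss1 (0.996), Shmt1 and Ftl1 (0.995 each), and Loxl2 to Tspan15, Gt(ROSA)26Sor and Crtc2 (0.998 each). The genes nearest Plod1 were Glud1 and Sptlc2 (0.98 each) and Cobll1 (0.97). Serpinh1 was closest to Klhdc10, to Ssr2, a subunit of the translocon-associated complex, and to Pdia6, a protein disulfide isomerase (0.998 each). Loxl1 was closest to Glrx, Rcn3 and Igfbp7 (0.99 each), and Lox to Dusp5 (0.995), Cav1 and Sec24b (0.99 each). Plod2 was closest to Eya2 (0.96), Irx5 and Dmrta2 (both 0.95), all 3 encoding developmental transcriptional regulators. The 8 pools come from 4 libraries, and these values are descriptions.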

How the data were processed

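The deposited tables hold counts of UMIs per gene and cell, made with Cell Ranger 3.0.2 on mm10, per the submitters' processing notes. Cell filters of the authors beyond that are not given in these sources. With scanpy 1.11.5, cells with at least 500 genes and at most 10% mitochondrial UMIs were kept (11.7%, 40.5%, 20.9% and 24.7% of barcodes in quiescent EOM and TA and activated EOM and TA exceeded that limit). The doublet caller marked 2, 0, 0 and 1 cells, so it had not worked, and the 127, 129, 365 and 222 highest-scoring cells were removed by rank (0.8% per 1000 barcodes). Clusters (2000 variable genes, 30 components, 15 neighbours, Leiden resolution 1) were named from markers found in at least 20% of their cells, a rule set after a first naming had been seen; 16 endothelial-like quiescent TA cells were left out. Library pairs shared 5 to 12 barcodes.

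UMIs were summed per library, or per library and Myog state, and divided by the pool's total. With 1 library per group no test was made; log2 ratios use CPM + 1. Folds and intervals were tested on simulated data. The simulation drew independent Poisson counts, the model behind the intervals, so it could not test the effect of UMIs clustered in few cells. The enzymes and further lists were chosen with earlier results of these data known; from each list up to 3 genes per direction with the largest ratio at 20 CPM or more were eligible to be named. Of the 31055 genes 30934 matched GENCODE vM21 by identifier. Alternatives were edgeR 4.0.16 TMM and median-of-ratios scaling, other filters, other Myog rules and cells without cycling markers. TMM moved log2 ratios by 0.36 (EOM) and 0.29 (TA) with activation, by -0.11 between quiescent muscles and by 0.13 between the EOM Myog states, and by under 0.1 elsewhere.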

Additional observations from a re-analysis of the deposited data

Results flagged for a closer look

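The fold of Lox between the muscles differed between the 2 states. It was lower in EOM than in TA among quiescent cells (fold 0.353) and not lower among activated cells (fold 1.37, within the 2-fold rule), and both counting intervals exclude 1. Within activated cells the fold was 1.25 (1.12 to 1.41) in Myog-free and 1.09 (0.899 to 1.32) in Myog-holding cells, and its log2 ratio was 0.02 in Myog-free cells without differentiation markers. With 1 library per group, whether the difference between the states exceeds that between animals was not tested. Lox UMIs were concentrated in few cells of each library.

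The 16 endothelial-like cells of quiescent TA, which no comparison used, had more Plod1 (48.3 against 12.2 CPM, fold 3.97, interval 1.27 to 9.42) and more Serpinh1 (425 against 190 CPM, fold 2.24, interval 1.63 to 3.02) than the muscle cells of that library. These values rest on 5 and 44 UMIs. Endothelial markers summed to 19964 CPM in the 16 cells, and muscle markers to 2638 CPM. Mural markers summed to 1488 and fibroblast markers to 1333 CPM, against 264 and 716 CPM in the muscle cells of that library. From which cell type the Plod1 and Serpinh1 UMIs came was not tested. Lox and Pcolce2 had no UMI in these cells, with upper limits of the fold at 0.869 and 1.5, so for Pcolce2 no difference is shown.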

How the results depend on the processing

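No ratio of a called enzyme changed its direction under any alternative run, while uncalled ratios near 1 did, such as P4ha1 with activation in EOM after TMM scaling. The filter at 20 CPM and the run without a filter reuse the same ratios, and a pseudocount cannot turn a sign. These runs could therefore not change a direction. Keeping cells with up to 20% mitochondrial UMIs, keeping doublets, a pseudocount of 0.1 CPM and equal weight for each cell changed none of the 80 calls, and the state from Myog, Mymk or Mymx, a second draw of the thinning and Myog-free cells without differentiation markers (the last 2 chosen after seeing the data) none of 40. The last of these left the Myog-holding cells as they were, so the calls between muscles in that state could not change under it. The pseudocount enters the log2 ratios only and not the folds that make a call, so it could not change a call either. Median log2 ratios over the enzymes moved as follows. With at least 20 CPM they were 0.41 (quiescent EOM against TA), 0.98 (activated EOM against TA), -0.86 (activation in TA) and -0.52 (Myog state in EOM). With no filter they were 0.62 (activated EOM against TA), -0.65 (Myog state in EOM), 0.76 (EOM against TA, Myog-free) and 0.40 (EOM against TA, Myog-holding). TMM gave 0.35 and -0.24 and median-of-ratios 0.34 and -0.29 for activation in EOM and TA, and both gave -0.67 for Myog state in EOM. Myog state in EOM gave -0.53 with 1 enzyme called when read from all UMIs, -0.69 with fusion genes added, -0.98 at 3 or more UMIs, -0.70 with a second draw and -0.88 in cells without Mki67 or Top2a. In TA 1 enzyme was called at 20 CPM and 1 with all UMIs. EOM against TA in activated cells without Mki67 or Top2a gave 0.69. In Myog-holding cells it gave 0.79 with all UMIs, 0.32 with 1 enzyme called at 3 or more UMIs and 0.43 with 1 called without Mki67 or Top2a. Filters change these medians by their construction, since other enzymes enter; for the other settings the cause was not tested. Single calls gained were Plod1 in EOM at 3 or more Myog UMIs (-0.98), Loxl1 in Myog-holding EOM against TA with all UMIs (1.07), Loxl1 with activation in EOM without other-type cells (-0.99) and Loxl2 between TA states with no filter (-0.76). No paired analysis was possible because each group is 1 library. The activated Loxl2 values are limited by few UMIs in few cells, and the quiescent Lox UMIs were concentrated in few cells. Quiescent Plod1 rested on 213 UMIs in EOM and 189 in TA, fewer than the 255 and 638 of Lox.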
